A study of Homo sapiens with 4 samples.

Results

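The genes described here encode interferons, the secreted proteins that cells release after sensing viral RNA. They were 9 genes chosen by name through the annotation of the array platform, out of 18639 genes with a named probe: IFNB1 (interferon beta), IFNL1 and IFNL3 (lambda interferons), IFNA1, IFNA2, IFNA8 and IFNA17 (interferon alpha), IFNE (interferon epsilon) and IFNK (interferon kappa). Each was represented by 1 probe. All 9 were above background on at least 1 array, and 4 of them, IFNB1, IFNA2, IFNA8 and IFNA17, on all 4 arrays. Of all 18639 genes, 17085 were above background on at least 1 array and 15738 on all 4, so being above background was common. A probe counted as above background when it exceeded its own array's blank spots by more than 2 of their SDs.

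The cells were HEK293, an immortalized human embryonic kidney line, carrying a transgene for LGP2-4KR (4KR cells) or for LGP2 (LGP2 cells). LGP2 belongs to the RIG-I-like receptors, which are helicases that bind RNA, and the labels do not define the 4KR form. Stimulated cells had been transfected with short poly I:C, an artificial double-stranded RNA, at 100 ng/ml and were collected after 12 h, and unstimulated cells are called 0 h. There were 4 groups of 1 array each: 4KR cells at 12 h, LGP2 cells at 12 h, 4KR cells at 0 h and LGP2 cells at 0 h. No array of mock-transfected cells or of HEK293 cells without a transgene was analysed here, so poly I:C, the transfection and 12 h in culture cannot be told apart. The labels do not say whether either line is 1 clone.

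Type I interferons (alpha, beta, epsilon and kappa) act on nearly all cells through the receptor of IFNAR1 and IFNAR2, while the type III interferons (lambda) use IFNLR1 with IL10RB, found mainly on epithelial cells. In the cytoplasm, RIG-I and MDA5 bind double-stranded RNA and signal through the adaptor MAVS and the kinase TBK1 to the transcription factors IRF3 and IRF7 and to NF-kB, which act on the promoters of IFNB1 and the lambda genes. LGP2 binds RNA too, but lacks the signalling domains of its relatives. Most interferon alpha genes are known for induction by IRF7 and for strong expression in plasmacytoid dendritic cells, IFNE for constitutive expression in the female reproductive tract, and IFNK for expression in keratinocytes.

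The 250 bases upstream of the annotated start are shown for the 3 members that rose after stimulation and for IFNA1, an alpha gene that did not pass the test, so that their motifs can be compared. The sequences are RefSeq's, build GRCh38.p14, printed 5′ to 3′ on the strand of the gene. Capitals mark the matches, on either strand, to the searched motifs named below.
IFNB1, chr9:21077943-21078192, minus strand: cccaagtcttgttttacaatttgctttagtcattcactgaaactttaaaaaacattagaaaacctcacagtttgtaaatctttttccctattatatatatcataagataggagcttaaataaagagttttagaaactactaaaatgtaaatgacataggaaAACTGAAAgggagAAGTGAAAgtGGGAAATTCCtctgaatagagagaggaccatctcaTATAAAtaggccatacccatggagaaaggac
IFNL1, chr19:39296157-39296406, plus strand: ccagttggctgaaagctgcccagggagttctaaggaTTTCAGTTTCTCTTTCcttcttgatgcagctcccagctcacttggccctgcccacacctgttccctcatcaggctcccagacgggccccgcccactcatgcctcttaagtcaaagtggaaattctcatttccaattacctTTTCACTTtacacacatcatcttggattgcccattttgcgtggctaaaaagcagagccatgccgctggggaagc
IFNL3, chr19:39245251-39245500, minus strand: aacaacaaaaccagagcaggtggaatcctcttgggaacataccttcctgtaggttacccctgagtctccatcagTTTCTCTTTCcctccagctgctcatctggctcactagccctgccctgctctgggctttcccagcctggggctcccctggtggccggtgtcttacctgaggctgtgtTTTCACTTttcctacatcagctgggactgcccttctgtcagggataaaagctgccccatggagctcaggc
IFNA1, chr9:21440189-21440438, plus strand: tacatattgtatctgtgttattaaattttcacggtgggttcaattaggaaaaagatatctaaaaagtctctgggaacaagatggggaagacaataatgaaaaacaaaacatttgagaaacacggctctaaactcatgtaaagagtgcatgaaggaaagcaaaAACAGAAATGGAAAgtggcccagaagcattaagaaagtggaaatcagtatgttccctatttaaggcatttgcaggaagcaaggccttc

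Each window was searched on both strands for the core recognised by interferon regulatory factors (IRFs), AANNGAAA, for its tandem form (GAAA, any 2 bases, GAAA), which overlaps the core, for an NF-kB motif (GGG, any 3 bases, TTCC), for an AP-1 motif, TGANTCA, and for the TATA box, TATAAA. The IRF core was added after the tandem form had been searched. The IFNB1 window held 2 IRF cores, at 89 to 82 and 76 to 69 bases before the start, an NF-kB match at 66 to 57 bases and a TATA box at 31 to 26 bases. The IFNL1 window held 3 IRF cores, of which the 2 farthest from the start lay within tandem matches, and the IFNL3 window held 2, at 176 to 169 and 70 to 63 bases. IFNL3 has a further annotated start in the table, and the 250 bases before it held none of the searched motifs. Of the 9 members, 7 had an IRF core in the listed window, including IFNA1, IFNA8, IFNA17 and IFNK, which did not pass the test. The core was present in 20.3% of 35116 promoter windows of this length, the tandem form in 3.02%, the NF-kB motif in 5.67%, the AP-1 motif in 6.57% and the TATA box in 10.7%. Among the 9 members the tandem form occurred in 3, IFNL1, IFNL3 and IFNA1, the NF-kB motif in IFNB1 alone, the TATA box in IFNB1 and IFNK, and the AP-1 motif in 0. Only exact matches to the given letters were counted, so a window without a match may still hold a site spelled otherwise. The IFNL3 window differed from that of IFNL2, a neighbouring lambda gene, at 1 of 250 bases.

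The main question was how interferon transcripts differed between stimulated and unstimulated cells. IFNB1, IFNL1 and IFNL3 rose in both lines, and none of the other 6 members passed the test. Intensities below are those of the table deposited by the authors, in which the median of the values given on each array is 25. They compare 1 probe across arrays and do not rank genes against each other.

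IFNB1, the type I interferon that epithelial and fibroblast-like cells make early after RNA sensing, had a deposited intensity of 579.5 in stimulated 4KR cells and 613.4 in stimulated LGP2 cells, against 9.6 in unstimulated 4KR cells and 7.82 in unstimulated LGP2 cells. Both stimulated arrays were far above both unstimulated ones. The deposited intensities differed 60.4-fold in 4KR cells and 78.4-fold in LGP2 cells. The unstimulated probe was itself above background, at 14.97 SD of the blank spots over their mean in 4KR cells and 12.7 SD in LGP2 cells, against 1093 SD and 1015 SD after stimulation. After background correction with an offset of 50 and quantile normalization, which shrink the ratios of dim genes, stimulated over unstimulated IFNB1 gave a log2 ratio of 4.04 in both lines. IFNB1 ranked 7 of 16751 genes by that ratio in 4KR cells and 8 of 16959 in LGP2 cells.

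IFNL3, a type III interferon, had an intensity of 41.6 in stimulated 4KR cells and 43.5 in stimulated LGP2 cells, against 1.7 in unstimulated 4KR cells and an empty value in unstimulated LGP2 cells. The unstimulated LGP2 probe was not above background, and the unstimulated 4KR probe was only just so, at 2.64 blank SD. The log2 ratio was 1.18 in 4KR cells and 1.21 in LGP2 cells. For LGP2 cells the value is a bound: IFNL3 was at least 2.27-fold higher with the offset, and at least 22.4-fold higher with plain subtraction of the blank level. In 4KR cells the deposited intensities differed 24.5-fold. The probe's sequence was not used here, and IFNL3 is very similar to IFNL2, and how far the probe tells them apart was not tested.

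IFNL1, the other lambda gene, had an intensity of 31.5 in stimulated 4KR cells and 30.9 in stimulated LGP2 cells, against 1.5 in unstimulated 4KR cells and 1.11 in unstimulated LGP2 cells. It was not above background in unstimulated LGP2 cells and just above it, at 2.33 blank SD, in unstimulated 4KR cells. Its log2 ratio of 0.96 in 4KR cells and 0.93 in LGP2 cells lay under the 2-fold threshold with the offset. In LGP2 cells IFNL1 was at least 1.89-fold higher by that measure and at least 16.1-fold higher with plain subtraction, and in 4KR cells the deposited intensities differed 21-fold. IFNL1 was past 2-fold in both lines in the deposited table, with plain subtraction, with an offset of 16, and when arrays were not normalized to each other.

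**Figure D1:**
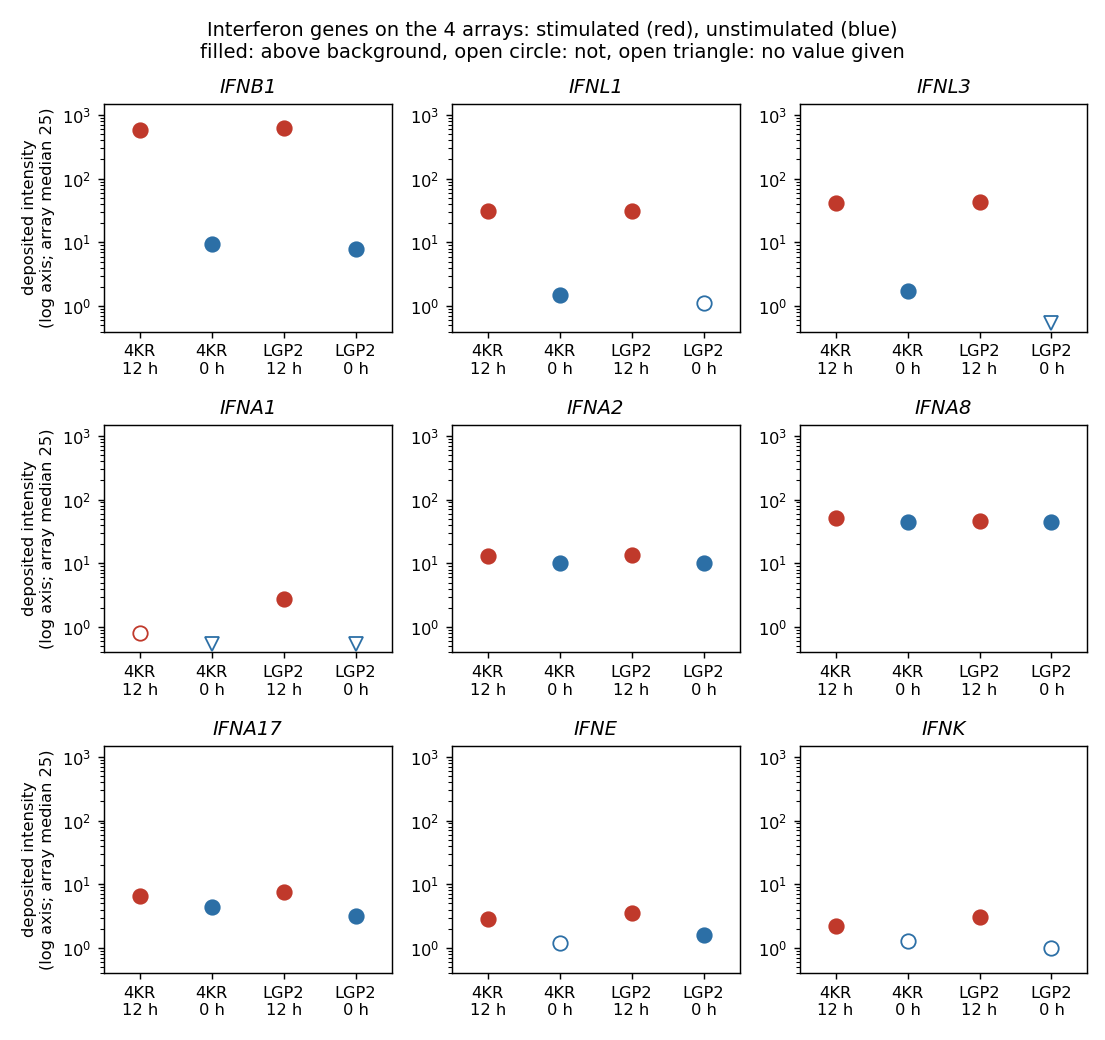
Deposited intensity of the 9 interferon genes (vertical log axis, arrays scaled to a median of 25) on the arrays of 4KR cells at 12 h and 0 h and LGP2 cells at 12 h and 0 h, with 1 point per array and no replicate. Filled circles are above background, open circles are not, and open triangles mark empty values. IFNB1 lies at 579.5 and 613.4 in stimulated cells against 9.6 and 7.82 in unstimulated cells, and IFNL1 and IFNL3 separate likewise. The other 6 genes differ less on this scale, IFNA17 in LGP2 cells for example with 7.5 at 12 h against 3.23 at 0 h.

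Counted by the 2-fold rule, 2 of the 9 members, IFNB1 and IFNL3, were higher in stimulated cells of each line, and 0 were lower. IFNA1 was not above background on either 4KR array, so 8 members were tested in 4KR cells and 9 in LGP2 cells. Of all genes tested, 0.406% were at least 2-fold higher in 4KR cells and 0.43% in LGP2 cells, while the share 2-fold lower was 0.00597% in 4KR cells and 0.0118% in LGP2 cells. The median log2 ratio of the members tested was 0.05 in 4KR cells and 0.05 in LGP2 cells, against -0.01 over all genes in each line. The 2-fold count has no replicate check, since each line had 1 array per time.

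A test was possible only by letting the lines stand in for replicates of the stimulation, in an additive limma fit over all genes above background with line as a covariate and Benjamini-Hochberg adjustment. In that fit IFNB1 rose by a log2 ratio of 4.04 (SE 0.03, adjusted p = 0.00124), IFNL3 by 1.19 (SE 0.03, adjusted p = 0.00998) and IFNL1 by 0.95 (SE 0.03, adjusted p = 0.0151), each higher in 2 of 2 lines. The other 6 members had adjusted p-values between 0.207 and 0.96. Over all 17085 genes, 7.95% were called higher and 7.3% lower, so a call by itself was common. The fit has 1 residual degree of freedom, drawn from the difference between the lines, and the separate cultures of a line were not sampled. In this fit limma draws each gene's variance toward that of all genes, so the SEs do not measure the spread of a single gene. IFNB1 and IFNL1 both had an SE of 0.03, though their responses differed between the lines by -0.0019 and 0.04.

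The plot of 6 processing settings, which differ in background, normalization or scaling, shows how far the size of the response depended on them. For IFNB1 the log2 ratio ran from 4.04 to 5.86 in 4KR cells and from 4.04 to 6.12 in LGP2 cells. For IFNL3 it ran from 1.18 to 4.28 in 4KR cells and from 1.21 to 5.48 in LGP2 cells, and for IFNL1 from 0.96 to 4.03 and from 0.93 to 4.14. The direction was the same in all of them.

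**Figure D2:**
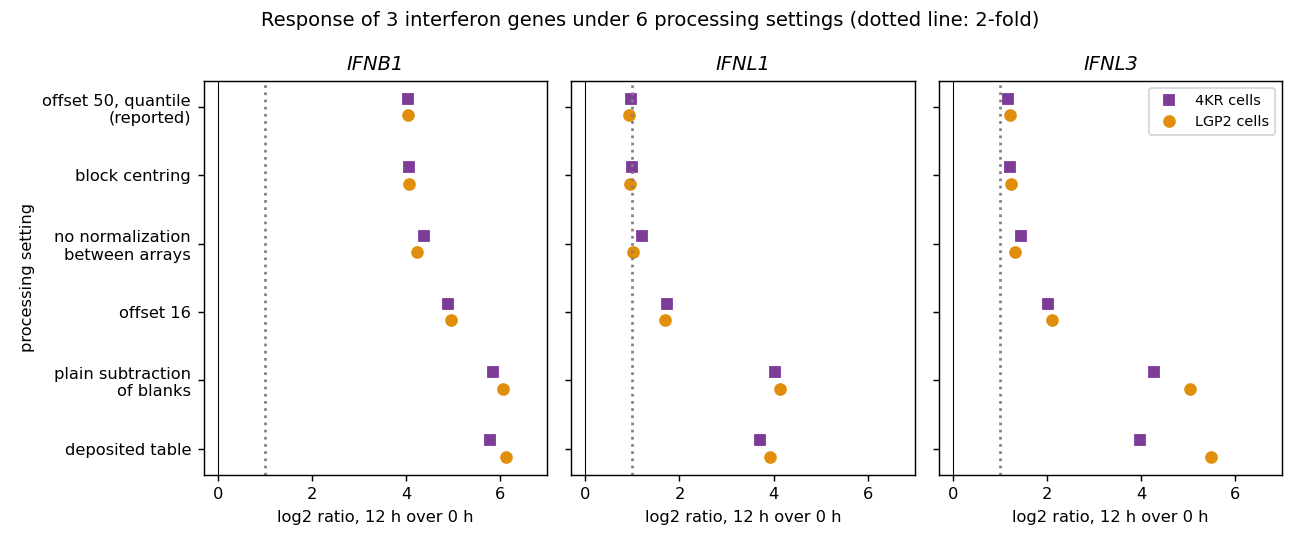
Log2 ratio of 12 h over 0 h (horizontal axis) for IFNB1, IFNL1 and IFNL3 in 4KR cells (squares) and LGP2 cells (circles) under 6 processing settings, with a dotted line at 2-fold. All points are above 0; IFNL1 lies at 0.96 and 0.93 with the offset of 50 and at 4.03 and 4.14 with plain subtraction.

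The 4 interferon alpha members were followed next. IFNA8 had intensities of 51.3 in stimulated 4KR cells and 46.3 in stimulated LGP2 cells, against 43.8 in unstimulated 4KR cells and 45.0 in unstimulated LGP2 cells. Its probe was thus well above background without stimulation, and its log2 ratio was 0.03 in 4KR cells and -0.15 in LGP2 cells. The alpha genes are close relatives, and how far their probes tell them apart was not tested.

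IFNA2 had 13.2 in stimulated 4KR cells and 13.6 in stimulated LGP2 cells, against 10.1 in unstimulated 4KR cells and 10.0 in unstimulated LGP2 cells. The stimulated values were the higher ones in both lines, but the log2 ratio was 0.05 in each. IFNA17 had 6.6 and 7.5 in stimulated 4KR and LGP2 cells, against 4.4 and 3.23 in unstimulated 4KR and LGP2 cells, with log2 ratios of 0.05 and 0.12. Its deposited intensities differed 1.5-fold in 4KR cells and 2.32-fold in LGP2 cells. IFNA1 was above background only in stimulated LGP2 cells, at 2.8, with 0.8 in stimulated 4KR cells and empty values on both unstimulated arrays. None of the 4 passed the additive test.

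IFNE had intensities of 2.9 in stimulated 4KR cells and 3.6 in stimulated LGP2 cells, against 1.2 in unstimulated 4KR cells and 1.58 in unstimulated LGP2 cells. IFNK had 2.2 and 3.1 in stimulated 4KR and LGP2 cells, against 1.3 and 1.0 in unstimulated 4KR and LGP2 cells. Stimulated values of both genes were above the unstimulated ones, by 0.9 to 2.1 units. Dim probes in general were brighter on the stimulated arrays. Of 3143 probes with deposited values between 1 and 5 on both unstimulated arrays, 79.4% were higher in stimulated 4KR cells and 91.8% in stimulated LGP2 cells, with a median change of 0.7 units in 4KR cells and 1.33 units in LGP2 cells. The changes of IFNE were 1.7 units in 4KR cells and 2.02 in LGP2 cells, and those of IFNK 0.9 and 2.1, against 95th percentiles of 3.0 and 3.88 units among those dim probes. IFNL1 changed by 30.0 units in 4KR cells and 29.8 units in LGP2 cells, beyond those percentiles. IFNA17, also between 1 and 5 on both unstimulated arrays, changed by 2.2 units in 4KR cells and 4.27 units in LGP2 cells. Its change in LGP2 cells lay beyond the percentile of 3.88 units, and that in 4KR cells did not reach 3.0. IFNA1's 2.8 units in stimulated LGP2 cells lay below the 95th percentile of 3.0 among probes that were empty on both unstimulated arrays and given a value there.

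A further question, posed by the pair of lines, was whether the interferon genes differed between 4KR and LGP2 cells. Of the members above background on a compared array, 9 at 12 h and 7 at 0 h, 0 were past 2-fold. In stimulated cells the log2 ratio of 4KR over LGP2 was 0.07 for IFNB1, 0.05 for IFNL1 and 0.01 for IFNL3, and the largest of any member was 0.15 for IFNA8. Of all genes tested at 12 h, 0.0117% were at least 2-fold higher in 4KR cells and 0% lower. The IFNB1 and IFNL3 ratios at 12 h changed sign in the deposited table, to -0.08 and -0.06, and give no direction.

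In unstimulated cells the largest ratio of any member was 0.07, for IFNB1, where 0.0124% of genes were 2-fold or more higher in 4KR cells and 0.0062% lower. The IFNB1 probe was 2.69 scanner units brighter over blank in unstimulated 4KR cells than in unstimulated LGP2 cells, against a SD of single blank spots between 1.05 and 1.28 units. It stands beside the deposited ratios of 60.4-fold in 4KR cells and 78.4-fold in LGP2 cells.

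Subtracting the LGP2 response from the 4KR response gave -0.0019 on the log2 scale for IFNB1, 0.04 for IFNL1 and -0.03 for IFNL3. The largest of any member was 0.18 for IFNA8, and the SD over genes above background on all arrays was 0.14. Of the 4 members above background on all arrays, which leaves out IFNL1 and IFNL3, 0 passed 2-fold, where 0.0254% of all genes were higher and 0.0318% lower. Over the settings tried, the difference ran from -0.35 to 0.15 for IFNB1 and from -0.21 to 0.19 for IFNL1. For IFNL3 it ran from -1.50 to 0.13, and the low end comes from the deposited table, where the empty unstimulated LGP2 value was set to 0. With 1 array per group the difference of the responses has no test.

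The line term of the additive limma fit, with the 2 times standing in for replicates of each line, was tested after the other values had been seen. Over both times the log2 ratio of 4KR over LGP2 was 0.07 for IFNB1 (SE 0.03, adjusted p = 0.872, higher at 2 of 2 times), and the adjusted p-values of the 9 members lay between 0.872 and 0.998. Of the members, 0 were called and 0 had an unadjusted p under 0.05. Of all 17085 genes in this limma fit, 0% were called higher and 0% lower, and 828 had an unadjusted p under 0.05. A p that misses the threshold does not show that the lines act alike.

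Other interferon genes on the array were compared as a list. Of 13 listed, 9 had a named probe, and 8 of these were above background in each line. None passed 2-fold in either line, with log2 ratios between -0.07 and 0.06 in 4KR cells and between -0.06 and 0.11 in LGP2 cells, and 0 of 8 passed the additive test, in limma with adjustment over all genes. IFNA6 had log2 ratios of 0.04 in 4KR cells and 0.11 in LGP2 cells, and intensities from 12.8 to 19 over the 4 arrays. IFNG, the type II interferon of T and NK cells, was given values only on the stimulated arrays, of 2.3 in 4KR cells and 2.6 in LGP2 cells. Of 3417 probes empty on both unstimulated arrays, 26.5% were given a value in stimulated 4KR cells and 38.4% in stimulated LGP2 cells. The IFNG values lay below the 95th percentiles of those given values, 2.985 in 4KR cells and 3 in LGP2 cells. IFNA21 was empty on all 4 arrays.

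Upstream of the interferon genes, 5 of 23 genes of RNA sensing and interferon promoter control were at least 2-fold higher in each line, with a median of 0.20 in both, against -0.01 over all genes. They were RIGI, the RNA sensor RIG-I, at 4.00 in 4KR cells and 4.14 in LGP2 cells, IFIH1, which encodes MDA5, at 2.37 and 2.43, IRF7 at 2.02 and 1.80, IRF1 at 1.65 and 1.80, and JUN, a subunit of AP-1, at 1.38 and 1.90. The JUN probe lay in block 20 of the array, with normalized log2 levels of 10.28 in stimulated 4KR and 10.65 in stimulated LGP2 cells. Of other probes there, NFKB1 had 8.55 and 8.80 and a RIGI probe 10.59 and 10.93, while the dim CLEC4C probe had 5.93 and 5.88. The RIGI probe outside that block had 10.33 and 10.23. At 0 h the RIGI probe in block 20 had 6.34 in 4KR cells and 6.37 in LGP2 cells, and the other 6.58 and 6.52. The RIGI ratios average these probes. Whether position on the array played a part was not tested. In the additive fit 7 of the 23 were higher and 0 lower. DHX58, the gene of LGP2, had intensities of 42.6 in stimulated 4KR cells and 51.0 in stimulated LGP2 cells, against 22.8 in unstimulated 4KR cells and 41.4 in unstimulated LGP2 cells, and whether its probe reads the transgene is not known here. The DHX58 probe lay in block 24 of the array. There the unstimulated LGP2 array was also brighter than the unstimulated 4KR array for IFIT1 (17.2 against 7.8) and an IFNAR2 probe (93.2 against 65.4). The probe of CD14, a leukocyte marker, in that block was not, at 20.5 against 20.9. A part of the position on the array in the DHX58 values was not tested.

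Downstream, 18 of 25 listed interferon-induced genes were at least 2-fold higher in each line, with a median log2 ratio of 2.05 in 4KR cells and 2.22 in LGP2 cells, and 23 of 25 passed the additive test. IFIT1, IFIT3 and IFIT2, antiviral RNA-binding proteins, led with 7.08, 6.06 and 5.78 in 4KR cells and 6.58, 6.06 and 5.73 in LGP2 cells. CXCL10, a T cell chemokine, followed with 5.23 and 5.07. CXCL10 was empty and not above background on either unstimulated array, so the size of its ratios depends on the offset. Among 10 genes of interferon receptors and signalling, 2 were at least 2-fold higher in each line: USP18, which limits type I interferon signalling, at 1.76 in 4KR cells and 1.58 in LGP2 cells, and IRF9, a subunit of the complex that binds interferon-stimulated promoters, at 1.26 and 1.30. The kinase genes JAK1 and TYK2 were called lower in the additive limma fit, with adjusted p-values of 0.039 and 0.0488, as were 7.3% of genes. Their normalized ratios were -0.42 and -0.24 in 4KR cells and -0.27 and -0.17 in LGP2 cells. Before normalization their signal above blank was higher in stimulated cells of both lines. JAK1 had 187.7 against 167.8 in 4KR cells and 197.3 against 183.0 in LGP2 cells, and TYK2 177.3 against 135.5 and 168.5 against 144.3. The median of all gene probes rose too, to 45.9 from 27.9 in 4KR cells and to 39.1 from 28.4 in LGP2 cells. The receptor genes, singled out after their values were seen, did not pass: IFNAR1 had 0.07 in 4KR cells and 0.11 in LGP2 cells, IFNAR2 -0.04 and -0.20, IFNLR1 0.07 and 0.15, and IL10RB -0.01 and -0.07. The 2 probes of IFNAR2 differed: on the LGP2 arrays one had normalized log2 levels of 7.53 at 12 h against 7.94 at 0 h, the other 7.69 against 7.68. The first of these probes and that of IFIT1 lay in block 24, described above with DHX58.

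**Figure D3:**
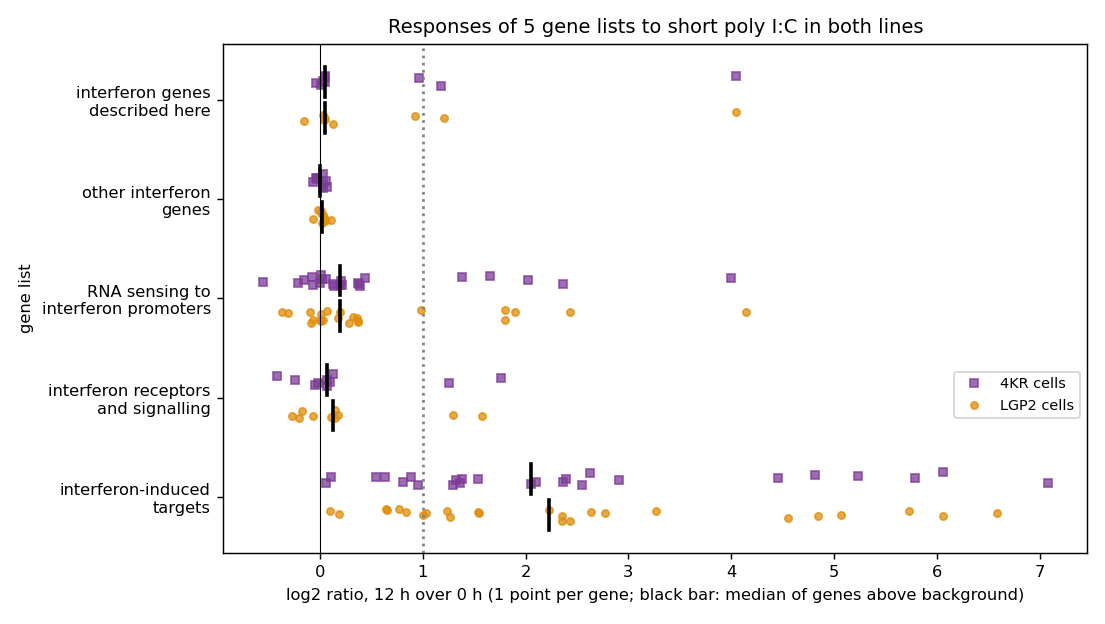
Log2 ratio of 12 h over 0 h (horizontal axis) of each gene of 5 lists in 4KR cells (squares) and LGP2 cells (circles), with a black bar at the median of the genes above background and a dotted line at 2-fold. Most interferon genes lie near 0 and IFNB1 lies at 4.04, while the interferon-induced targets have medians of 2.05 and 2.22.

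The genes whose pattern over the 4 arrays was nearest to a member were ranked by the Euclidean distance between centred log2 levels. Nearest to IFNB1 were CCL5, a chemokine, at a distance of 0.13, RIGI at 0.14, OASL at 0.48, CXCL8 at 0.68 and ISG15 at 0.79. CCL5 had log2 ratios of 3.94 in 4KR cells and 3.88 in LGP2 cells, beside 4.04 for IFNB1 in each line. Nearest to IFNL3 were PTGS2, NCOA7, GADD45A, RSRC2 and IRF9, at distances between 0.04 and 0.09. Nearest to IFNL1 were CCNL1, SAMD9, TRIM21, OTUD1 and OAS3, at distances between 0.03 and 0.07. The RIGI level averages the probes given above, which differed in their rise. The OAS3 level also averages probes that differed. On the 4KR arrays one had normalized log2 levels of 8.28 at 12 h against 6.36 at 0 h, the other 5.91 against 5.93. On the LGP2 arrays they had 8.30 against 6.22 and 5.90 against 5.93. With 4 arrays the measure mostly orders genes by the size of their response, and for the dim lambda genes that size was shrunk by the offset. OASL was empty and not above background on either unstimulated array, so the size of its response depends on the offset too.

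Markers of other cell types were read beside these values. Of 7 leukocyte markers with a named probe, 5 were above background on every array and 0 had an intensity over 25. Their summed intensity was 50.8 and 59.7 in stimulated 4KR and LGP2 cells, against 47.7 and 46.4 in unstimulated 4KR and LGP2 cells. CD3E counted through a probe with intensities between 12.0 and 14.2, while its other probe was empty on all 4 arrays. The median normalized log2 ratio of the 5 markers above background was -0.05 in 4KR cells and -0.03 in LGP2 cells. Keratinocyte markers, of which 5 of 5 were above background, summed to 321.7 and 307.4 in stimulated 4KR and LGP2 cells, against 242.8 and 247.7 in unstimulated 4KR and LGP2 cells. KRT14 made up most of each sum, with 208.0 and 195.5 in stimulated against 152.8 and 155.9 in unstimulated 4KR and LGP2 cells. The median normalized log2 ratio of the 5 keratinocyte genes was 0.13 in 4KR cells and -0.004 in LGP2 cells, and 0 were past 2-fold. The part of the keratinocyte markers in the IFNK values was not tested. Fibroblast markers were above background for 3 of 6 genes on the stimulated arrays and 1 of 6 on the unstimulated arrays, summing to 95.7 and 95.1 in stimulated 4KR and LGP2 cells, against 82.3 and 81.2 in unstimulated 4KR and LGP2 cells. A DCN probe made up most of each sum, with 91.7 and 89.3 in stimulated against 81.1 and 79.9 in unstimulated 4KR and LGP2 cells. The other DCN probe had a value only in stimulated LGP2 cells, of 1.5. The part of the fibroblast markers in the results was not tested. Of 7 genes typical of HEK293 cells, 7 were above background on every array, with sums of 4495 and 4787 in stimulated 4KR and LGP2 cells, against 6216 and 5900 in unstimulated 4KR and LGP2 cells. A single probe of VIM, the gene of vimentin, made up most of that sum, with 2967.6 and 3199.1 in stimulated against 4366.7 and 4183.5 in unstimulated 4KR and LGP2 cells. The median normalized log2 ratio of the 7 genes was -0.10 in 4KR cells and -0.06 in LGP2 cells.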

How the data were processed

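Per the labels' protocols, amino allyl aRNA made from each of 4 RNA samples was dyed with Cy5, and each sample has 1 single-colour array. The scanner tables deposited by the authors give the median intensity of each spot, not normalized, per the file headers. The authors' deposited series table has intensities that equal, by comparison with the scanner values, the spot median minus about the blank level, scaled to a median of 25, with a largest residual of 0.053. The sources used here do not state why values were left empty, and empty values were treated as below the blank level.

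Each array held 27456 spots, with 24460 gene probes and 384 blanks. The mean blank served as background in limma 3.58.1 (R 4.3.3), by normexp with an offset of 50, then quantile normalization and log2. A platform annotation named 1 gene for 21707 probes and none for 2753. Probes of a gene were averaged, leaving out 1 rejected probe. Detection was 88.0% and 89.2% of gene probes in stimulated 4KR and LGP2 cells, against 83.8% and 83.2% in unstimulated 4KR and LGP2 cells. The number of arrays limits precision.

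Calls needed a 2-fold ratio and a probe above background on the brighter array, or on all 4 for the difference of the responses. Lower bounds took the higher of the dim array's lowest detected probe and the gene's own level. The additive limma fit used line and time as terms, which pairs the times within each line, and its line term was tested as an addition. Methods were run on simulated data with known fold changes, the same in both lines. That run does not show how often a change in dim members would be called. Members, lists and tests were chosen with earlier results of these data known. Named were the 9 members, up to 4 genes per list with the largest mean response, any listed interferon gene past 2-fold, DHX58, and the 5 genes nearest in pattern to IFNB1, IFNL1 and IFNL3. JUN, the neighbouring genes and the flat or dim genes singled out were added after their values were seen. Alternatives were an offset of 16, plain subtraction, no normalization between arrays, the deposited table, block centring, a 3 SD background limit and, for the fit, no filter. Promoter windows were aligned and searched with Biopython 1.88.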

Additional observations from a re-analysis of the deposited data

Results flagged for a closer look

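In 2 genes the lines moved in opposite directions after stimulation, which was not tested, since each line had 1 array per time. IFNA1 had a log2 ratio of -0.037 in 4KR cells and 0.044 in LGP2 cells. It was above background on the stimulated LGP2 array alone. IFNA8 had 0.027 in 4KR cells and -0.15 in LGP2 cells. The opposition was not seen in 2 settings. In the deposited table IFNA1 had 0.85 in 4KR cells and 1.93 in LGP2 cells, and IFNA8 had 0.22 and 0.04. When arrays were not normalized to each other, IFNA1 had 0.014 in 4KR cells and 0.068 in LGP2 cells, and IFNA8 had 0.49 and 0.13. No group had the 4 arrays needed to look for a sample far from the others.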

How the results depend on the processing

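IFNB1, IFNL1 and IFNL3 kept their direction and passed the additive limma fit in all 8 settings tried, with an adjusted p of at most 0.0406. The number of members past 2-fold was 2 in each line as reported and became 3, with IFNL1, in 4 settings for 4KR cells and 3 for LGP2 cells. In the deposited table it was 6 in LGP2 cells, adding IFNL1, IFNA1, IFNA17 and IFNK; there the all-gene median was 0.26, against -0.01 as reported. Between the lines 0 members were past 2-fold as reported. At 12 h this became 1 in the deposited table and 1 with plain subtraction, in both cases IFNA1, lower in 4KR cells. At 0 h it became 1 in the deposited table, IFNL3, higher in 4KR cells by 1.43 against an empty LGP2 value, and the count for the difference of the responses stayed at 0. There IFNL3 (-1.50 in the deposited table) and IFNA1 (-1.08, and -1.55 after plain subtraction) were past 2-fold in size but not above background on all arrays. IFNA8, at -0.06 in the additive fit, turned to 0.31 (adjusted p = 0.00981) when arrays were not normalized to each other, a setting that moved the all-gene median to 0.26 in 4KR cells and 0.12 in LGP2 cells, and to 0.13 (adjusted p = 0.403) in the deposited table. IFNE passed the fit in the deposited table alone (0.83, adjusted p = 0.0386). The cause of these changes was not tested.

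Counts over all genes moved far more. In 4KR cells 68 genes were higher and 1 lower as reported, against 448 and 112 after plain subtraction, 869 and 26 for deposited intensities, 100 and 9 with an offset of 16, and 418 and 0 without normalization between arrays. In LGP2 cells the counts were 73 and 2, against 561 and 177, 1454 and 29, 119 and 12, and 177 and 0 in the same order. The additive fit called 2606 genes as reported, 1374 in the deposited table, 74 with plain subtraction and 6948 when arrays were not normalized to each other. Between the lines the counts were 2 higher and 0 lower at 12 h as reported, 59 and 214 in the deposited table and 130 and 95 with plain subtraction; at 0 h 2 and 1, against 148 and 109 and 90 and 90. For the difference of the responses they were 4 and 5, against 36 and 75 and 128 and 82. The line term, added after the data were seen, called 0 members in all 8 settings, and over all genes 0 as reported and 37 when arrays were not normalized to each other. The additive fit already pairs the times within each line, and with 1 array in each group no further pairing was available. Signal over background limits IFNL1, IFNL3, IFNA1, IFNE and IFNK, whose unstimulated probes lay within 3 SD of the blank level on both arrays.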

Other observations

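Protein-coding genes beside the interferon loci, in the gene order of RefSeq, were chosen after values had been seen. KLHL9, a ubiquitin ligase adaptor within the type I cluster, had log2 ratios of stimulated over unstimulated cells of 0.11 in 4KR cells and 0.01 in LGP2 cells. On either side of that cluster, FOCAD, HACD4, MTAP and CDKN2A ran from -0.35 to 0.53. The highest was MTAP, an enzyme of methionine salvage, in LGP2 cells, with 0.12 in 4KR cells. Beside the lambda genes, NCCRP1, SYCN, LRFN1 and GMFG ran from -0.17 to 0.03, and the 4 genes beside IFNK from -0.03 to 0.09. None of these neighbours was past 2-fold, and HACD4, SYCN and EQTN were above background on 0 arrays.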
